A study of Homo sapiens with 27 samples.

Results

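Gene expression was compared between LNCaP95 cells given 500 nM IPI-9119 and LNCaP95 cells given the vehicle DMSO. The comparison used the 3 libraries of each group, 6 of the 27 libraries of the series, chosen by the labels alone, and 12844 of the 20987 genes in the table, those with a normalised count of 10 or more in at least 3 of the 9 LNCaP95 libraries. LNCaP95 is a prostate cancer cell line derived from LNCaP and kept without androgen, and the labels call it castration resistant. Cells were given the drug or DMSO for 6 days with no renewal of the medium, and a further LNCaP95 group had 100 nM IPI-9119. That group entered the filter and the estimate of spread behind each standard error and p-value, and is otherwise used where stated. The same 3 treatments were applied to LNCaP, labelled androgen sensitive, and to 22Rv1, labelled castration resistant. Nothing in the labels tells if replicate libraries came from different cultures, and p-values therefore measure only their spread, which may be technical. In bulk RNA, fewer cells of a kind and less RNA per cell cannot be told apart.

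IPI-9119 is an inhibitor of fatty acid synthase. This enzyme, the product of FASN, builds palmitate from acetyl-CoA and malonyl-CoA and is abundant in prostate cancer cells. Genes of fatty acid and cholesterol synthesis are induced by the SREBP transcription factors, which are held in the endoplasmic reticulum membrane by INSIG proteins and released for processing when membrane sterols run low. The transcription factor ATF4 is translated more when stress kinases phosphorylate the initiation factor eIF2-alpha, for instance on amino acid shortage or endoplasmic reticulum stress, and induces amino acid transporters, amino acid synthesis enzymes and the factor CHOP, encoded by DDIT3. Androgen signalling, which induces KLK3, the gene of prostate-specific antigen, remains active in many castration-resistant cells.

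Each LNCaP95 library held 15073809 to 23565696 reads in genes. Mitochondrially encoded genes took 3.62%, 6.92% and 1.99% of counts in the 500 nM libraries, against 3.19%, 2.28% and 1.78% in the DMSO libraries, so 500 nM replicate 2 stood apart from the rest. Each 500 nM library was closer to the 100 nM library of its own number than to its own replicates, with values given beside the comparison of doses. The 11 luminal prostate markers were all tested and summed to 94452 to 95041 with 500 nM and 79314 to 80006 with DMSO, with the keratin gene KRT8 at 17455, 16987 and 19359 normalised counts in the 500 nM libraries, against 14621, 13981 and 16036 in the DMSO libraries. Of these, 5 rose and 1 fell. The number that rose was 3 in each fit without DMSO replicate 2 or 3 or without 500 nM replicate 2 or 3. Markers of other cell types were low with exceptions, and their part in the results was not tested. The summed level of 7 basal markers was 32.9 to 39.7 in the 500 nM libraries and 19.0 to 19.6 in the DMSO libraries, with KRT5 and TP63 at or near 0 and only S100A2 tested, which rose (0.93 ± 0.24). The 10 neuroendocrine markers summed to 972 to 1242 with 500 nM and 894 to 1116 with DMSO, with ENO2 the most abundant of those named here, while CHGA and SYP were near 0. Of the 4 neuroendocrine markers tested, 1 rose and 0 fell. The 9 fibroblast and smooth muscle markers summed to 1692.5 to 2213 with 500 nM and 2081 to 2478 with DMSO, mostly COL1A1 and LUM, with DES at 0. Of the 6 tested, 0 rose and 1 fell. This was ACTA2, whose call was lost without DMSO replicate 2 or 3 or 500 nM replicate 1 (-0.49 to -0.40). The 6 endothelial markers summed to 16.5 to 19.4 with 500 nM and 17.2 to 22.8 with DMSO, with PECAM1 at 0. The 10 immune markers summed to 79.6 to 167 with 500 nM and 91.1 to 128 with DMSO, mostly PTPRC, with CD3D and CD3E at 0.

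More genes were called than not, and rises and falls were similar in number. With limma on log2(normalised count + 1) and an adjusted p under 0.05, 6715 of 12844 genes were called (52.3%), 3623 higher (28.2%) and 3092 lower (24.1%) with 500 nM than with DMSO. At least 2-fold changes were called for 719 genes that rose (5.6%) and 513 that fell (3.99%). The 3 libraries of the drug lay above all 3 of DMSO in 4063 genes (31.6%) and below all of them in 3506 (27.3%). The median log2 fold change over all genes tested was 0.03, and every list median below is to be read against it. Log2 fold changes are given with their standard error, are on the log2(normalised count + 1) scale, which understates changes of low genes, and are positive where the gene was higher with 500 nM (n = 3 libraries per group). Without 500 nM replicate 2, 6071 genes were called. A share of members called in a list is read against these percentages.

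**Figure D1:**
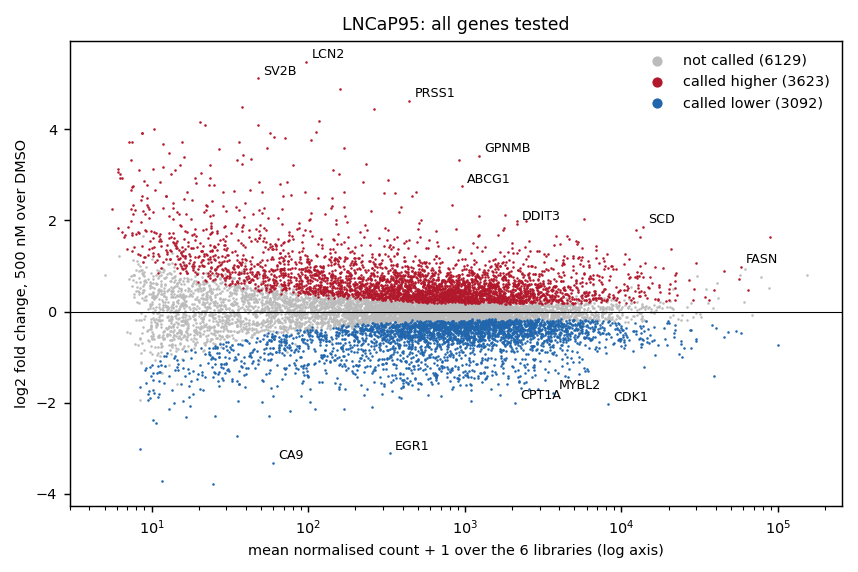
Log2 fold change of 500 nM IPI-9119 over DMSO in LNCaP95 (vertical axis) against the mean normalised count over the 6 libraries (horizontal log axis), 1 point per gene tested. Red points were called higher (3623), blue points lower (3092) and grey points were not called, and LCN2, at 5.48, is the highest point of those labelled.

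The largest rise among genes with a mean of 50 or more in the higher group was that of LCN2. This gene, which encodes the iron-siderophore carrier lipocalin 2, had 325, 110.1 and 132 normalised counts in the 500 nM libraries, against 4.4, 4.70 and 0.759 in the DMSO libraries, a log2 fold change of 5.48 ± 0.483 (adjusted p = 1.69e-06). SV2B, a synaptic vesicle glycoprotein gene, had 131, 59.7 and 85.6 normalised counts in the 500 nM libraries, against 2.64, 1.57 and 0.759 in the DMSO libraries (5.12 ± 0.417). The DMSO values of both genes were close to 0, and the absence of overlap between groups was a condition of their choice. MMP13, which encodes a collagenase, had 345, 311 and 276 normalised counts in the 500 nM libraries, against 27.3, 32.9 and 16.7 in the DMSO libraries (3.59 ± 0.221). SERPINA3, an acute-phase protease inhibitor gene, had 169, 91.6 and 73.7 normalised counts in the 500 nM libraries, against 15.8, 6.26 and 2.28 in the DMSO libraries (3.84 ± 0.475), 4.44 without DMSO replicate 1 and 3.25 without DMSO replicate 3. ABCA4, a lipid transporter of photoreceptors, had 351, 165 and 120.0 normalised counts in the 500 nM libraries, against 11.4, 11.7 and 11.4 in the DMSO libraries (3.94 ± 0.32). In each of these 3 genes the lowest 500 nM value was above the highest DMSO value, as the choice of the genes required. DDR2, a collagen receptor kinase gene, reached 3.92 ± 0.44, GCNT3, a mucin glycosyltransferase gene, 3.80 ± 0.327, and TENM4, a teneurin gene, 3.76 ± 0.378. KLHDC7B reached 4.46 ± 0.257, LURAP1L 4.50 ± 0.304, GPR1 4.19 ± 0.341 and FIBIN 4.09 ± 0.242. C1orf158 rose by 4.89 ± 0.425, and by 4.25 without DMSO replicate 2. The trypsinogen paralogs PRSS1 (4.62 ± 0.248) and PRSS3 (3.73 ± 0.575, and 4.48 and 3.01 without DMSO replicates 2 and 3) may share reads and are uncertain.

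CA9, the hypoxia-induced carbonic anhydrase IX gene, had 9.23, 9.26 and 10.7 normalised counts in the 500 nM libraries, against 99.5, 112 and 109 in the DMSO libraries, a log2 fold change of -3.33 ± 0.223 (adjusted p = 2.72e-07). EGR1, an immediate early transcription factor gene, had 32.3, 48.4 and 121 normalised counts in the 500 nM libraries, against 320.5, 369 and 1086 in the DMSO libraries (-3.11 ± 0.73). The DMSO values of EGR1 were themselves spread, with replicate 3 the highest, and those of CA9 were close together. CORO1A, an actin-binding coronin gene, had 7.39, 14.4 and 4.75 normalised counts in the 500 nM libraries, against 57.2, 57.1 and 62.2 in the DMSO libraries (-2.72 ± 0.339). CPT1A, the gatekeeper of long-chain fatty acid entry into mitochondria, had 935, 775 and 799 normalised counts in the 500 nM libraries, against 3415, 3091 and 3541 in the DMSO libraries (-2.0 ± 0.0932, adjusted p = 5.8e-08). ADORA1, an adenosine receptor gene, fell by 1.98, SHISA2 by 2.19, PDZD2 by 2.3 and RASL11A by 2.15. BCL2L14 fell by 1.96, and by 1.32 without 500 nM replicate 3. The alpha-tubulin paralogs TUBA3D (-2.10 ± 0.277) and TUBA3E (-1.98 ± 0.296) may share reads and are uncertain. The rest of the 15 largest falls, E2F2, CDK1, MCM10 and GINS1, belong to the cell cycle and are given with it.

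**Figure D2:**
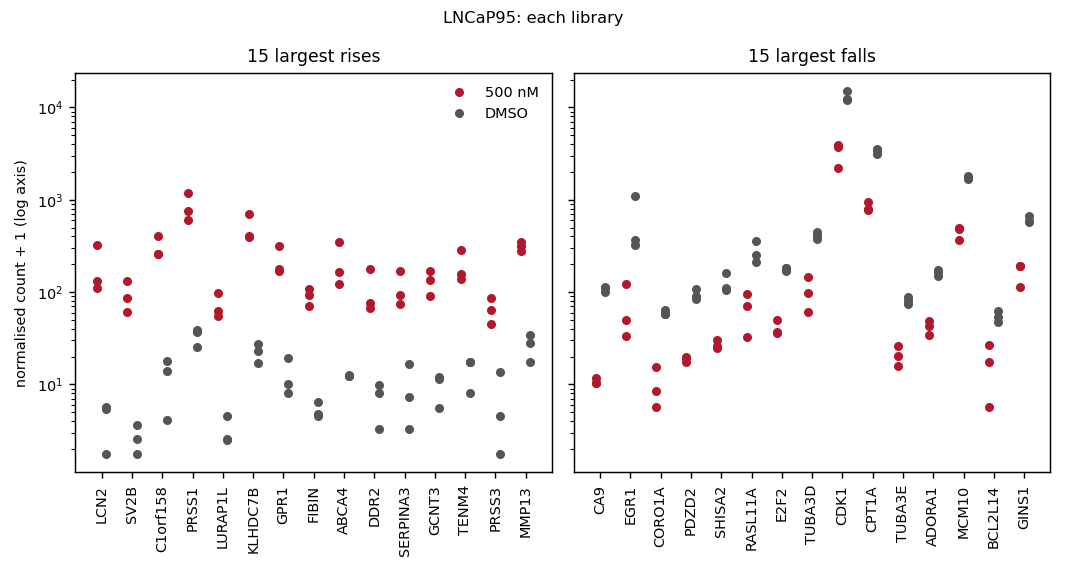
Normalised count + 1 (log axis) of each 500 nM library (red) and each DMSO library (grey) for the 15 genes that rose most and the 15 that fell most in LNCaP95. Each gene has 3 points per group, and the absence of overlap between red and grey points was a condition of the choice of these genes.

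Genes of the ATF4 and amino acid response rose throughout. Of 37 genes listed, 37 rose and 0 fell, with a median log2 fold change of 1.04, and in 37 of 37 the drug's libraries lay above those of DMSO. Without 500 nM replicate 2, 36 rose and 0 fell. ATF4 itself had 18195, 16587 and 17572 normalised counts in the 500 nM libraries, against 9700.4, 8479 and 8053 in the DMSO libraries, a log2 fold change of 1.0 ± 0.0873 (adjusted p = 1.57e-06). DDIT3, the CHOP gene, had 3724, 2990.4 and 3414 normalised counts in the 500 nM libraries, against 1184, 700.5 and 836 in the DMSO libraries (1.92 ± 0.157). TRIB3, a pseudokinase gene induced by both factors, had 6361, 5507 and 5406 normalised counts in the 500 nM libraries, against 2109, 1897 and 1487 in the DMSO libraries (1.66 ± 0.114). All 3 genes were higher in each 500 nM library than in each DMSO library. Among amino acid transporters, SLC3A2, the heavy chain of several exchangers, had 21812, 16653 and 19059.7 normalised counts in the 500 nM libraries, against 5608, 5455 and 5545 in the DMSO libraries (1.78 ± 0.109). SLC7A11, its cystine-exchanging partner, had 4407, 3684 and 3629.8 normalised counts in the 500 nM libraries, against 1259, 861 and 879.7 in the DMSO libraries (1.98 ± 0.138). SLC7A5, the partner that carries large neutral amino acids, reached 1.33 ± 0.175 and SLC1A4, a carrier of small neutral amino acids, 1.34 ± 0.102. Enzymes of amino acid synthesis included ASNS, asparagine synthetase, with 10248, 10937 and 10689.9 normalised counts in the 500 nM libraries, against 5355, 4189 and 4591 in the DMSO libraries (1.18 ± 0.0943). The gamma-lyase gene CTH reached 1.69 ± 0.148, PSAT1 of serine synthesis 1.04 ± 0.0866, and the mitochondrial folate enzyme ALDH1L2 1.58 ± 0.0874. PHGDH, the first enzyme of serine synthesis, moved least of the list, with 30438, 31683 and 31696 normalised counts in the 500 nM libraries, against 26481, 26384 and 25817 in the DMSO libraries (0.25 ± 0.0863, adjusted p = 0.0248), and its call was lost without DMSO replicate 1 or 3 or 500 nM replicate 2 or 3 (0.24 to 0.26, adjusted p = 0.0567 to 0.0747). The call of PHGDH was also lost in limma with only the 500 nM and DMSO libraries fitted (adjusted p = 0.0554). Sensors and feedback genes rose as well. SESN2, an inhibitor of mTORC1 at low leucine, had 4099, 2971 and 3303 normalised counts in the 500 nM libraries, against 1068, 726 and 826 in the DMSO libraries (1.99 ± 0.143). CHAC1, which degrades glutathione, reached 1.77 ± 0.194, DDIT4, an mTORC1 inhibitor, 1.65 ± 0.176, and PPP1R15A, which directs dephosphorylation of eIF2-alpha, 1.43 ± 0.2. FGF21, a secreted stress hormone gene, had 20.3, 21.6 and 25.0 normalised counts in the 500 nM libraries, against 2.64, 0 and 1.52 in the DMSO libraries (3.47 ± 0.432), levels close to those of single reads in DMSO.

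The promoters of FGF21 and SLC3A2 are shown because they hold the C/EBP-ATF response element, TGATGNAA, and have the largest changes of the matched members that do. The element, searched on both strands with no overlap with other motifs removed, was in 6 of 32 list promoters matched by symbol (18.8%), against 1003 of 27305 promoters of the same 300 bases (3.67%). The members were ASNS, SLC3A2, SLC7A1, CHAC1, AARS1 and FGF21. Sequences are RefSeq's on GRCh38.p14, from 250 bases before to 50 after the annotated start, whereas the deposited values were made on hg19, and no coordinate was carried between builds. The windows are FGF21 at chr19:48755274-48755573 on the plus strand and SLC3A2 at chr11:62881449-62881748 on the plus strand, and capitals mark the match, read here as TTNCATCA, which begins at -54 from the start in FGF21 and at 37 in SLC3A2. A match is a description of letters and shows no binding.
FGF21: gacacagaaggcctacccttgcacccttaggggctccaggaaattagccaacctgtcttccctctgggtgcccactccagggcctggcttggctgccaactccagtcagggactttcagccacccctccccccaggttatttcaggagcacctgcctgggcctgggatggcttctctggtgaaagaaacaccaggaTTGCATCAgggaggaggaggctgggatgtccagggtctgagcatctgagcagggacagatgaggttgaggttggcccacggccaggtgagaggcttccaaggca
SLC3A2: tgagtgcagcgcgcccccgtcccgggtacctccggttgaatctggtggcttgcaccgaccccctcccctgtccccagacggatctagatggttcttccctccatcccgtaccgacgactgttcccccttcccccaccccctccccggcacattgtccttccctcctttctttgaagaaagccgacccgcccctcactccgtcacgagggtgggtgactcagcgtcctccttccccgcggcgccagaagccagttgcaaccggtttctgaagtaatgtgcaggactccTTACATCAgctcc

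Genes of endoplasmic reticulum chaperones and the unfolded protein response rose in part. Of 24 tested, 17 rose and 1 fell (median 0.49). DNAJB9, a co-chaperone of the chaperone BiP, had 3217, 2728 and 2791 normalised counts in the 500 nM libraries, against 791, 659 and 564 in the DMSO libraries (2.13 ± 0.115, adjusted p = 1.08e-07). HERPUD1, of the degradation complex in that membrane, reached 1.40 ± 0.0892. The stress sensors themselves were higher, with EIF2AK3, the gene of the kinase PERK, at 1.30 ± 0.0921, ERN1, the gene of IRE1, at 1.08 ± 0.178 and ATF6 at 0.99 ± 0.0839. HSPA5, the BiP gene, had 78726, 63755 and 67949 normalised counts in the 500 nM libraries, against 42972, 45205 and 40495 in the DMSO libraries (0.71 ± 0.126), and XBP1, the factor spliced by IRE1, had 11223, 10496 and 10986 normalised counts in the 500 nM libraries, against 7497, 8657 and 6592 in the DMSO libraries (0.53 ± 0.0918). In each of these genes the groups lay apart. The chaperone genes HSP90B1 (0.20 ± 0.116, adjusted p = 0.165) and CALR (0.19 ± 0.0948, adjusted p = 0.117) were not called, though CALR was with the replicate number blocked (0.19, adjusted p = 0.0227), and SDF2L1, of the BiP complex, fell by 0.40.

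Sterol genes rose together with their regulators. Cholesterol synthesis had 17 genes that rose and 2 that fell of 20 (median 0.66), the same counts as without 500 nM replicate 2. The SREBP regulators and genes of sterol uptake had 9 and 1 of 12 tested (median 0.77). HMGCS1, an early synthase of the pathway, had 4938, 4016 and 4913 normalised counts in the 500 nM libraries, against 2006, 1791 and 2114 in the DMSO libraries, a log2 fold change of 1.23 ± 0.11 (adjusted p = 1.93e-06). Every library of the drug was above every DMSO library. Late enzymes of the pathway rose too, with the methyl oxidase MSMO1 at 1.32 ± 0.089, the desaturase SC5D at 1.23 ± 0.112 and the reductase DHCR7 at 1.0 ± 0.114. The isomerase gene EBP fell by 0.47 and the thiolase gene ACAT2 by 0.22, a call lost without DMSO replicate 2 or 3 or 500 nM replicate 1 (-0.21 to -0.17, adjusted p = 0.0764 to 0.103). Of the regulators, INSIG1, which retains the SREBPs, had 8097, 7148 and 7538 normalised counts in the 500 nM libraries, against 2948, 2256 and 2684 in the DMSO libraries (1.54 ± 0.0963). SREBF1, which encodes the SREBP of lipogenic genes, had 15240.5, 14334 and 15038 normalised counts in the 500 nM libraries, against 6114, 6046 and 6306 in the DMSO libraries (1.27 ± 0.0693), and SREBF2, which encodes that of sterol genes, reached 0.79 ± 0.0914. NPC1, which exports cholesterol from lysosomes, had 7644, 8126 and 6310.0 normalised counts in the 500 nM libraries, against 3405, 3527 and 2809 in the DMSO libraries (1.18 ± 0.121). SCARB1, the HDL receptor gene, fell by 0.69.

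Among the promoters of these lists matched by symbol, only that of SREBF2, shown here, held the sterol regulatory element searched, TCACNCCAC on either strand. Matched were 15 of 20 genes of cholesterol synthesis and 11 of 14 of the regulators, and the rest were not searched. That element was in 0 of 15 cholesterol synthesis promoters, in 1 of 11 promoters of the regulators (9.09%) and in 313 of 27305 promoters (1.15%). Its window is SREBF2 at chr22:41832855-41833154 on the plus strand (RefSeq, GRCh38.p14), and the match in capitals begins at -133 from the start. Other spellings of the element were not searched.
SREBF2: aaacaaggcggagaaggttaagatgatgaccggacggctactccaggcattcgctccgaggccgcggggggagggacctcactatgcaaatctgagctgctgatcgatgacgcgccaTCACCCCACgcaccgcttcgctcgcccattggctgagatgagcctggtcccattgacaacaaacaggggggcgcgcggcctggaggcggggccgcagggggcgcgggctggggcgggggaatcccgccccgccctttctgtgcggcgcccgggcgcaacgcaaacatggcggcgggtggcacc

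Genes of fatty acid metabolism moved by step. FASN, the drug's target, had 90036, 73703 and 66479 normalised counts in the 500 nM libraries, against 40436, 41132 and 34549 in the DMSO libraries, or 0.98 ± 0.14 as log2 fold change (adjusted p = 7.1e-05). The groups of FASN did not overlap. SCD, the desaturase that makes oleate, had 26898, 19252 and 18015 normalised counts in the 500 nM libraries, against 6626, 4453 and 6592 in the DMSO libraries (1.86 ± 0.17). ACACA, which makes malonyl-CoA, reached 0.47 ± 0.111, ACSS2, which makes acetyl-CoA from acetate, 0.66 ± 0.103, and ME1, a source of NADPH, 1.05 ± 0.0836. ACLY, which makes acetyl-CoA from citrate, was not called, with 9843, 9901 and 9724 normalised counts in the 500 nM libraries, against 10647, 9313 and 11147 in the DMSO libraries (-0.07 ± 0.0824, adjusted p = 0.471). Of the synthesis list 4 rose and 2 fell of 10 tested (median -0.05, and 1 fell without DMSO replicate 1, 500 nM replicate 2 or 500 nM replicate 3), and of the elongation and desaturation list 8 rose and 2 fell of 14 tested (median 0.26). In elongation and desaturation, 5 rose without 500 nM replicate 2, with equal totals, with edgeR and with DESeq2, and 1 fell without DMSO replicate 1 or 2. The desaturases FADS1 (0.77 ± 0.104) and FADS2 (0.67 ± 0.131) rose, while ELOVL6, which extends palmitate to stearate, fell, with 416, 429 and 417 normalised counts in the 500 nM libraries, against 649, 614 and 619 in the DMSO libraries (-0.57 ± 0.0844). In fatty acid uptake and activation, 3 rose and 4 fell of 13 tested (3 and 2 without 500 nM replicate 2), with the acyl-CoA synthetase ACSL1 (1.26 ± 0.112). In fatty acid oxidation, 5 rose and 11 fell of 21 tested (median -0.22). Next to CPT1A, the thiolase ACAA2 (-1.10 ± 0.129), the electron carrier ETFB (-0.80 ± 0.0962) and the carnitine carrier SLC25A20 (-0.64 ± 0.159) fell. The medium-chain dehydrogenase ACADM (0.25 ± 0.0685) and PPARA, a regulator of oxidation in liver (0.57 ± 0.12), rose.

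Of other lipid genes, sphingolipid synthesis had 10 members that rose and 1 that fell of 16 tested (median 0.35, with 0 falls without DMSO replicate 2 or 500 nM replicate 1), among them the ceramide synthase CERS4 (0.92 ± 0.082) and the acid ceramidase ASAH1 (0.87 ± 0.0925). In triglyceride and lipid droplet genes, 6 rose and 5 fell of 18 tested (3 falls without DMSO replicate 3 or 500 nM replicate 1), with the phosphatidate phosphatase LPIN1 at 1.0 ± 0.129, and PLIN2 did not pass the filter. In phospholipid synthesis, 9 rose and 6 fell of 23 tested (median 0.00), with the serine base-exchange enzyme PTDSS1 at -0.67 ± 0.0741. Of 6 tested targets of the oxysterol receptors LXR, 3 rose and 2 fell. The 2 that fell, ABCA1 and NR1H3, were both lost without DMSO replicate 1 or 500 nM replicate 1, and NR1H3, the gene of LXR-alpha (-0.26 ± 0.1, adjusted p = 0.0432), also without DMSO replicate 3 or 500 nM replicate 2 (-0.29 to -0.19, adjusted p = 0.0587 to 0.169). The call of NR1H3 was lost too in limma with only the 500 nM and DMSO libraries fitted (adjusted p = 0.0657). ABCG1, a sterol exporter, had 1691, 1695 and 1599 normalised counts in the 500 nM libraries, against 245, 268 and 226 in the DMSO libraries (2.75 ± 0.0803, adjusted p = 3.46e-10). ABCA1, the exporter that loads HDL, had 36.0, 69.0 and 45.2 normalised counts in the 500 nM libraries, against 107, 108 and 57.7 in the DMSO libraries (-0.84 ± 0.325, adjusted p = 0.0436). The groups of ABCA1 overlapped, and its call was lost without DMSO replicate 1 or 2 or 500 nM replicate 1 or 3, where its value ran from -0.79 to -0.64 (adjusted p = 0.103 to 0.149).

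**Figure D3:**
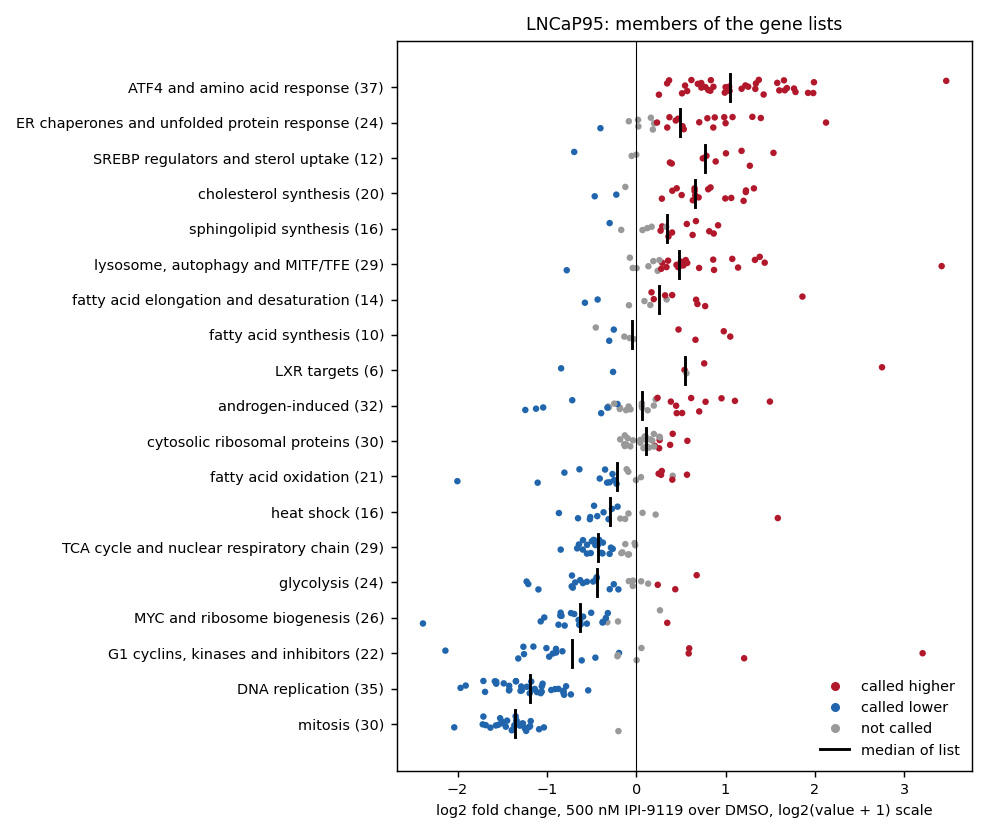
Log2 fold change of 500 nM over DMSO for each tested member of 19 gene lists in LNCaP95 (number tested in brackets), 1 point per gene, red where called higher, blue where called lower and grey where not called, with a black bar at the list median. The ATF4 list lies wholly right of 0 with its median at 1.04, and the mitosis and DNA replication lists lie wholly left of 0 with medians at -1.36 and -1.19.

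Genes of cell division fell. Of 30 genes of mitosis, 0 rose and 29 fell (median -1.36), and of 35 genes of DNA replication 0 rose and 35 fell (median -1.19). Without 500 nM replicate 2, 29 and 35 fell. CDK1, the kinase that drives entry into mitosis, had 2198, 3895 and 3718 normalised counts in the 500 nM libraries, against 11917, 14901 and 12434 in the DMSO libraries, a log2 fold change of -2.04 ± 0.193 (adjusted p = 2.83e-06). MKI67, the gene of the proliferation marker Ki-67, had 1625, 904 and 1641 normalised counts in the 500 nM libraries, against 5025, 3118 and 5362 in the DMSO libraries (-1.71 ± 0.259). The groups lay apart in both, with CDK1 lowest in 500 nM replicate 1 and MKI67 lowest in 500 nM replicate 2. Of the mitotic apparatus, ESPL1, which encodes separase, reached -1.72 ± 0.0995, the kinase AURKB -1.71 ± 0.172, the survivin gene BIRC5 -1.63 ± 0.208, and the kinase PLK1 -1.57 ± 0.183. BUB3, a checkpoint protein gene, was the 1 mitosis gene not called (-0.20 ± 0.0808, adjusted p = 0.0528), and it was called with the replicate number blocked (adjusted p = 0.00402) and at -0.25 without DMSO replicate 1 or -0.25 without 500 nM replicate 3 (adjusted p = 0.0405 and 0.0339). MCM10, which loads polymerase at origins, had 366, 478 and 493 normalised counts in the 500 nM libraries, against 1677, 1711 and 1806 in the DMSO libraries (-1.97 ± 0.13). GINS1, a subunit of the replicative helicase, had 113, 192 and 193 normalised counts in the 500 nM libraries, against 571, 664 and 593 in the DMSO libraries (-1.91 ± 0.181). RRM2, of ribonucleotide reductase, reached -1.69 ± 0.138 and the helicase subunit MCM2 -1.42 ± 0.128, and the polymerase subunit POLE had the smallest change (-0.54 ± 0.0749). Among 22 cyclins, kinases and inhibitors of the G1 phase, 4 rose and 14 fell. CCND1, the cyclin D1 gene, had 909.6, 978 and 891 normalised counts in the 500 nM libraries, against 1649, 2002 and 1680.4 in the DMSO libraries (-0.93 ± 0.107). E2F2, a transcription factor of S phase genes, had 35.1, 49.4 and 35.7 normalised counts in the 500 nM libraries, against 183, 167 and 182 in the DMSO libraries (-2.14 ± 0.209), and SKP2, which marks p27 for degradation, reached -1.32 ± 0.11. All 4 members that rose restrain the cycle. CDKN1A, the p21 gene, had 2652, 2442 and 2391 normalised counts in the 500 nM libraries, against 1182, 1155 and 918 in the DMSO libraries (1.21 ± 0.0904), CDKN1B, the p27 gene, reached 0.59 ± 0.076 and the pocket protein RBL2 0.59 ± 0.0649. CDKN2B, the p15 gene, had 57.3, 35.0 and 32.1 normalised counts in the 500 nM libraries, against 6.16, 1.57 and 3.79 in the DMSO libraries (3.21 ± 0.368).

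The GINS1 and CDK1 promoters are shown as the largest-moving matched members with the element searched for each list. The E2F site TTTGGCGC, on either strand, was in 6 of 31 matched DNA replication promoters (19.4%), against 180 of 27305 promoters (0.659%). The letters TTTGAA, those of the cell cycle homology region, were on either strand in 14 of 23 matched mitosis promoters (60.9%), against 4212 of 27305 (15.4%). Such a match describes letters, shows no binding and does not show that the site acts. The windows are GINS1 at chr20:25407423-25407722 on the plus strand and CDK1 at chr10:60778081-60778380 on the plus strand (RefSeq, GRCh38.p14). Capitals mark the match, which begins at 5 from the start in GINS1, read there as GCGCCAAA, and at -161 in CDK1.
GINS1: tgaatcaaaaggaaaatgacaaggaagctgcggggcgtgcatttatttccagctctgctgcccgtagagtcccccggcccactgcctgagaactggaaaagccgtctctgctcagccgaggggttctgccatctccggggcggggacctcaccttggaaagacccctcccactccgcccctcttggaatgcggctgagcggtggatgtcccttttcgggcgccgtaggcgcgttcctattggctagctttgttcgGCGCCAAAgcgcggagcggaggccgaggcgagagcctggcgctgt
CDK1: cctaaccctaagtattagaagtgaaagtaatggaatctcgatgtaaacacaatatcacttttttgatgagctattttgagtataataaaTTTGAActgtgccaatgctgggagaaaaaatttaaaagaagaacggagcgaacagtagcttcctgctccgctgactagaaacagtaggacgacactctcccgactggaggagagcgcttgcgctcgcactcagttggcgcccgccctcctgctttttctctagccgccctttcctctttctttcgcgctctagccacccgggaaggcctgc

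Genes of ribosome biogenesis, glycolysis and the TCA cycle fell more often than they rose. Of 26 genes of MYC and ribosome biogenesis, 1 rose (2 without DMSO replicate 3) and 22 fell (median -0.63), with nucleolin, NCL, at -0.80 ± 0.102, fibrillarin, FBL, at -0.87 ± 0.108 and the nucleolar gene BOP1 at -1.07 ± 0.118. MYC had 4106, 5132 and 5310.5 normalised counts in the 500 nM libraries, against 6768, 4909.5 and 6608 in the DMSO libraries (-0.32 ± 0.14, adjusted p = 0.0682). It was not called in the main test and was called with edgeR (adjusted p = 0.0413), DESeq2 (0.0199) array weights (0.0179) and replicates 1 and 3 only (0.0263), when the replicate number was blocked (-0.32, adjusted p = 0.0153) and without DMSO replicate 2 (-0.47, adjusted p = 0.0114). MYCN had 1.85, 1.03 and 3.57 normalised counts in the 500 nM libraries, against 28.2, 10.2 and 10.6 in the DMSO libraries (-2.39 ± 0.53). Of 30 cytosolic ribosomal protein genes, 6 rose and 0 fell (median 0.11). Of these 11 rose without 500 nM replicate 1, 3 without 500 nM replicate 2, and 11 rose and 1 fell when blocked on the replicate number, and their processed copies make these counts uncertain. In glycolysis, 3 rose and 16 fell of 24 tested (median -0.44). LDHA, which makes lactate, had 6983, 9145 and 9280.2 normalised counts in the 500 nM libraries, against 17683, 21315 and 19449 in the DMSO libraries (-1.21 ± 0.122, adjusted p = 4.77e-06), and PFKP, a phosphofructokinase gene, reached -1.23 ± 0.102. Of the TCA cycle and nuclear respiratory chain 0 rose and 22 fell of 29 tested (median -0.43), with the isocitrate dehydrogenase IDH2 at -0.85 ± 0.0903 and the succinate dehydrogenase subunit SDHB at -0.66 ± 0.0908.

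None of the 13 mitochondrially encoded genes was called, with a median of 0.55. MT-CYB, of complex III, had 74536, 137042 and 37464 normalised counts in the 500 nM libraries, against 55797, 28014 and 34436 in the DMSO libraries (0.94 ± 0.448, adjusted p = 0.0937). In each group the values spread widely, with 500 nM replicate 2 the highest of the 6 and 500 nM replicate 3 below DMSO replicate 1. Blocking on the replicate number, it was called (0.94, adjusted p = 0.0121), as were MT-CO2 (0.81, adjusted p = 0.00493), MT-ND2 (0.79, adjusted p = 0.036) and MT-ND3 (0.55, adjusted p = 0.00965). Without 500 nM replicate 3 all 4 were called too and 6 of the 13 rose, as many as with the block, MT-CYB at 1.42 (adjusted p = 0.0164). Of 16 cytosolic and mitochondrial heat shock genes, 1 rose and 10 fell (median -0.29; 2 rose without 500 nM replicate 2 or when blocked on the replicate number), with HSPB1 at -0.87 ± 0.111 and the cytosolic chaperone HSP90AA1 at -0.65 ± 0.111. The member that rose was the small heat shock gene CRYAB (1.59 ± 0.143).

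**Figure D4:**
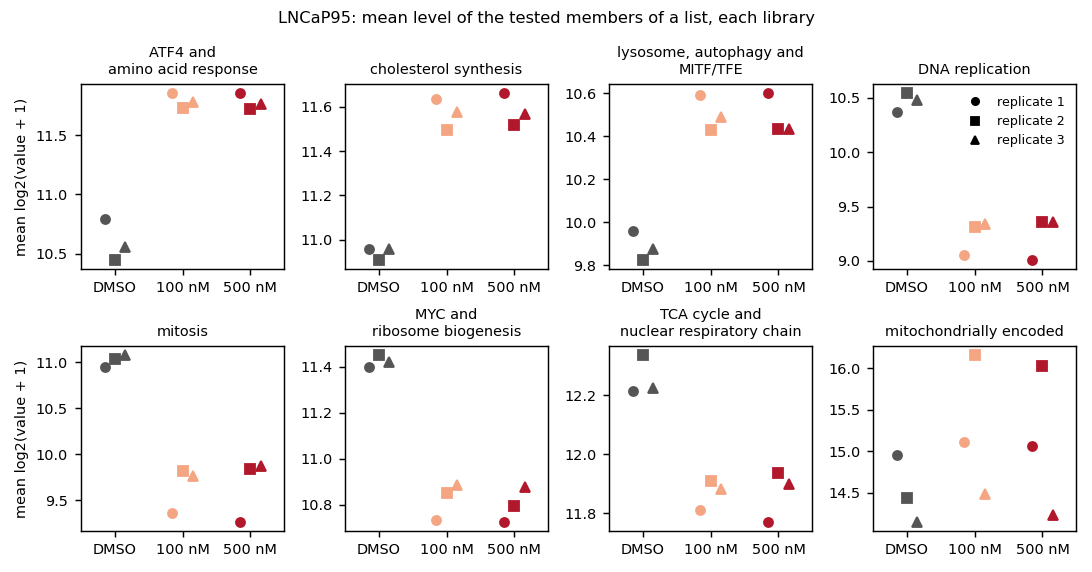
Mean log2(normalised count + 1) over the tested members of 8 gene lists in each LNCaP95 library, by dose in the order DMSO, 100 nM, 500 nM, with circles, squares and triangles for replicates 1, 2 and 3. In 7 lists the 500 nM and the DMSO points do not overlap, while in the mitochondrially encoded list they do, with both treated replicates 2 on top.

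Lysosome and autophagy genes rose. Of 29 tested, 21 rose and 1 fell (median 0.48), as many as without 500 nM replicate 2. GPNMB, a lysosomal glycoprotein gene induced by MITF and TFE factors, had 3421, 1739 and 1616 normalised counts in the 500 nM libraries, against 192, 224 and 179.9 in the DMSO libraries, a log2 fold change of 3.42 ± 0.262 (adjusted p = 6.2e-07). SQSTM1, the autophagy receptor p62 gene, had 34408, 26202 and 29688 normalised counts in the 500 nM libraries, against 11699, 12059.7 and 10695 in the DMSO libraries (1.38 ± 0.117). The groups lay apart in both. The autophagosome genes MAP1LC3B (1.33 ± 0.0954) and WIPI1 (1.44 ± 0.126) and the protease CTSD (1.08 ± 0.116) rose, as did FLCN (0.70 ± 0.124) and RRAGD (0.87 ± 0.108), which act in lysosomal nutrient sensing. LAMP1, the main lysosomal membrane protein gene, had 6308, 5143 and 4631 normalised counts in the 500 nM libraries, against 3936, 3512 and 3629 in the DMSO libraries (0.53 ± 0.116). The factor genes MITF (0.00 ± 0.165), TFEB (-0.04 ± 0.0992) and TFE3 (0.24 ± 0.097) were not called (adjusted p = 0.985, 0.76 and 0.0526), though TFE3 was when blocked on the replicate number (adjusted p = 0.0033) and without DMSO replicate 3 (0.30) or 500 nM replicate 2 (0.31). GLA, alpha-galactosidase, fell by 0.78.

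The LAMP1 promoter is shown for its 2 matches to the CLEAR element TCACGTGA, which reads alike on both strands. That element was in 5 of 23 matched list promoters (21.7%), LAMP1, ATP6V0D1, GAA, MCOLN1 and CTSA, against 283 of 27305 promoters (1.04%). The window is LAMP1 at chr13:113296989-113297288 on the plus strand (RefSeq, GRCh38.p14), with capitals at the matches.
LAMP1: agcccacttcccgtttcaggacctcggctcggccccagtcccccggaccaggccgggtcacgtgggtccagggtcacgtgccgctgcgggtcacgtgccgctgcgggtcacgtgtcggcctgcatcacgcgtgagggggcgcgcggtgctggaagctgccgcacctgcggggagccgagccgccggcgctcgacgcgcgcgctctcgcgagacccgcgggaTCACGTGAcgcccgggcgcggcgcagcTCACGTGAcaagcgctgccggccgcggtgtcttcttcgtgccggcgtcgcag

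Iron storage genes moved most in their list after SLC7A11, of which 7 rose and 3 fell of 16 tested (4 rose without DMSO replicate 3 or 500 nM replicate 2). FTH1, the ferritin heavy chain gene, had 168746, 123925 and 113803 normalised counts in the 500 nM libraries, against 47410.1, 41158 and 41316 in the DMSO libraries (1.63 ± 0.183), and FTL, the light chain gene, reached 1.20 ± 0.0669 (uncertain, since both have processed copies that may share reads). The iron importer TFRC was not called (-0.15 ± 0.0797, adjusted p = 0.135), and the reductase gene STEAP3 fell by 1.0. Of NRF2 and pentose phosphate genes 8 rose and 2 fell of 18 tested (4 fell when blocked on the replicate number and with DESeq2), with the heme oxygenase HMOX1 at 0.77 ± 0.199, while NQO1, a classical NRF2 target, was not called (-0.13 ± 0.0776). Of p53 targets 12 rose and 7 fell of 23 tested (4 fell without DMSO replicate 2 or 500 nM replicate 1). Beside CDKN1A and SESN2, GDF15, a secreted stress cytokine gene, had 10632, 8112 and 8848 normalised counts in the 500 nM libraries, against 2994, 1994 and 1834 in the DMSO libraries (2.04 ± 0.163, adjusted p = 8.36e-07). The apoptosis gene BBC3 reached 1.56 ± 0.167, while the repair gene DDB2 fell by 0.69. Of hypoxia genes 10 rose and 4 fell of 20 tested, in opposite directions for VEGFA, the angiogenic factor (1.43 ± 0.0998), and CA9.

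Androgen pathway genes had no common direction. Of 32 androgen-induced genes tested, 11 rose and 7 fell (median 0.06, which turned below 0 in 8 of the 19 other settings). KLK3 had 1113, 1197 and 1559 normalised counts in the 500 nM libraries, against 854, 751 and 900.1 in the DMSO libraries (0.61 ± 0.142, adjusted p = 0.00266). FKBP5, a co-chaperone of steroid receptors, had 957, 999.5 and 1085 normalised counts in the 500 nM libraries, against 1997, 2174 and 2092 in the DMSO libraries (-1.04 ± 0.0869). KLK3 was thus higher in each 500 nM library and FKBP5 lower in each. KLK2 (0.13 ± 0.189, adjusted p = 0.593) and TMPRSS2 (0.06 ± 0.155, adjusted p = 0.752) were not called. HOXB13, a lineage factor gene, fell by 0.32, and the chaperone FKBP4 by 0.69. FOLH1, the gene of prostate-specific membrane antigen, had 20433, 19794 and 22386 normalised counts in the 500 nM libraries, against 13759, 13513 and 14485 in the DMSO libraries (0.58 ± 0.082). STEAP1, another surface antigen gene, reached 1.07 ± 0.0743. Androgen synthesis had 5 genes that rose and 0 that fell of 8 tested, with AKR1C3, which makes testosterone from androstenedione, at 2.33 ± 0.213. The near-identical AKR1C1 (1.91 ± 0.211) and AKR1C2 (1.35 ± 0.259) may share its reads, and the 3 are uncertain.

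Other lists moved in both directions. Of interferon response genes 3 rose and 6 fell of 20 tested, with IFIT1 at -1.15 ± 0.171 and ISG20 at 1.27 ± 0.118. Of MHC class I presentation genes 5 rose and 4 fell of 15 tested (1 fell without DMSO replicate 2, and 2 in the other fits that left out 1 library except that without DMSO replicate 1), with the peptide trimmer ERAP1 at 1.42 ± 0.108. Of NF-kB and acute phase genes 3 rose and 3 fell of 11 tested, LCN2 and RELB (1.18 ± 0.153) among those that rose. Of immediate early genes 3 rose and 6 fell of 19 tested. The phosphatase DUSP5 (-1.59 ± 0.21) fell with EGR1, while ATF3, also induced by ATF4, had 1865, 1386 and 1741 normalised counts in the 500 nM libraries, against 532, 578 and 628 in the DMSO libraries (1.51 ± 0.113). Of the insulin-like growth factor axis 3 rose and 1 fell of 8 tested (1 rose without 500 nM replicate 2 and with DESeq2). IGFBP3, a binding protein gene, had 6190.2, 12368 and 10224 normalised counts in the 500 nM libraries, against 1618, 6152 and 4749.7 in the DMSO libraries (1.35 ± 0.413, adjusted p = 0.0145). Its libraries were spread in both groups, and it was not called at 0.77 without DMSO replicate 1 (adjusted p = 0.0511), nor when 500 nM replicate 2 was left out (1.14, adjusted p = 0.0591).

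The 500 nM libraries did not differ by any called gene from those given 100 nM. With limma 0 of 12844 genes passed (0%), and 95 had an unadjusted p under 0.05, where chance alone would give 642.2. That fit leaves out the replicate number, and with it as a block 0 passed and 217 had such a p. Counts so far below chance mean that the p-values are not calibrated for this contrast. The spread taken as error was wider than that between same-numbered libraries, given below, so small effects of dose could be missed. With edgeR and DESeq2 0 passed as well, with 85 and 42 at an unadjusted p under 0.05. FASN had 90036, 73703 and 66479 normalised counts with 500 nM, against 89476, 72609 and 79199.9 with 100 nM, a log2 difference of -0.07 ± 0.14. For CDK1 the values were 2198, 3895 and 3718 with 500 nM, against 2547, 3899 and 3252 with 100 nM (-0.01 ± 0.193), and for ASNS 10248, 10937 and 10689.9, against 11383, 11279 and 9845 (-0.03 ± 0.0943). In all 3 genes the libraries of both doses overlapped. Against the same 3 DMSO libraries, 6713 genes were called with 100 nM (52.3%), 3616 higher (28.2%) and 3097 lower (24.1%). By list, 37 ATF4 genes rose at 500 nM and 37 at 100 nM (medians 1.04 and 1.03), 29 and 30 genes of mitosis fell (-1.36 and -1.36), and 17 and 17 of cholesterol synthesis rose (0.66 and 0.62). The 2 doses share their DMSO libraries, so likeness between them is no independent repeat. Over the 11131 genes with a mean of 50 or more, the log2 ratio of a 500 nM and a 100 nM library with the same replicate number had an SD of 0.147, 0.137 and 0.158. Between libraries of the same group it was 0.195 to 0.258, and between 500 nM and DMSO libraries 0.519 to 0.694. In recovered reads, Pearson's chi-square per gene was 2.76, 2.81 and 4.68 for the same-numbered 500 nM and 100 nM libraries, against 17.2 to 59.6 within groups, where 1 is the value for sampling noise alone. Same-numbered 500 nM and 100 nM libraries of LNCaP had 19.8 to 35, within groups 6.17 to 60.9, and those of 22Rv1 3.76 to 35.5, within groups 5.45 to 73.9. In LNCaP95 each 500 nM library thus resembled the 100 nM library of its own number more than its own replicates, by more than sampling noise, and why was not tested.

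The effect of 500 nM in LNCaP95 was set against that in the other lines as a difference of effects, in limma over all 27 libraries and 11761 genes. It differed from LNCaP in 4571 genes (38.9%), 2327 higher (19.8%) and 2244 lower (19.1%), and from 22Rv1 in 2983 (25.4%), 1527 higher (13%) and 1456 lower (12.4%). Of the calls against LNCaP 50.9% were higher, and 39.5% after scaling libraries to equal totals, and of those against 22Rv1 51.2% and 61.6%. Median differences over all genes were 0.02 from LNCaP and 0.01 from 22Rv1. The cytosolic ribosomal protein list took 1.82% to 2.1% of counts in LNCaP95 libraries and 4.83% to 7.33% in those of the other lines. Of its 30 genes, 24 differed upward and 0 downward from LNCaP, where 26 fell, and 0 differed from 22Rv1. The part of this difference in make-up in the comparison of lines was not tested. Within LNCaP 3036 of 11761 genes were called (25.8%), 1608 higher (13.7%) and 1428 lower (12.1%), and within 22Rv1 1122 (9.54%), 652 higher (5.54%) and 470 lower (4%). With libraries scaled to equal totals the split was 2047 higher and 953 lower in LNCaP, and turned round in 22Rv1, with 381 higher and 776 lower. The median effect of the ATF4 list was 1.04 in LNCaP95, against -1.01 in LNCaP, where 1 of 35 genes rose and 29 fell, and 0.13 in 22Rv1, where 4 rose and 1 fell. Of 35 genes tested in all lines, 34 differed upward and 0 downward from LNCaP, and 29 and 0 from 22Rv1. ATF4 differed by 2.13 ± 0.181 from LNCaP (adjusted p = 6.3e-09), and ASNS by 2.69 ± 0.214 (adjusted p = 2.52e-09). In both genes the effects had opposite signs, at 1.0 in LNCaP95 and -1.13 in LNCaP for ATF4. The lines also began from different DMSO levels. Mean ATF4 was 8744 with DMSO and 17451 with 500 nM in LNCaP95, against 19349 and 8965 in LNCaP. Mean ASNS was 4711 and 10625 in LNCaP95, against 15686 and 5514 in LNCaP. Division genes differed the other way. In mitosis 30 of 30 genes differed downward from LNCaP (median difference -2.18) and 16 of 30 from 22Rv1 (-1.06), and in DNA replication 35 of 35 and 30 of 35. The counts from LNCaP were 30 and 35 also without LNCaP DMSO replicate 1, where the median for mitosis was -2.65. From 22Rv1, the mitosis count ran from 5 to 28 over the settings tried, at 5 without LNCaP95 500 nM replicate 1, 8 without LNCaP95 DMSO replicate 2 or 3, 7 without 22Rv1 DMSO replicate 2, and 8 or 9 without 22Rv1 500 nM replicate 1 or 2. The DNA replication count from 22Rv1 was 20 without LNCaP95 500 nM replicate 1. CDK1 differed by -3.53 ± 0.347 from LNCaP (adjusted p = 4.58e-08). Its mean was 13084 with DMSO and 3270 with 500 nM in LNCaP95, against 1281 and 3381 in LNCaP. The part of these DMSO levels in the differences between lines was not tested. Of 20 genes of cholesterol synthesis, 1 differed upward and 6 downward from LNCaP (median difference -0.42) and 1 and 2 from 22Rv1. The downward count from LNCaP was 4 without LNCaP DMSO replicate 2 or LNCaP 500 nM replicate 1. It was 9 with equal totals or with the replicate number blocked, and 11 with array weights. The difference in FASN was not called from LNCaP (-1.16 ± 0.519, adjusted p = 0.0788) or from 22Rv1 (-0.70 ± 0.519, adjusted p = 0.343). KLK3 differed by 2.56 ± 0.255 from LNCaP (adjusted p = 5.75e-08), with effects of 0.61 in LNCaP95 and -1.94 in LNCaP.

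**Figure D5:**
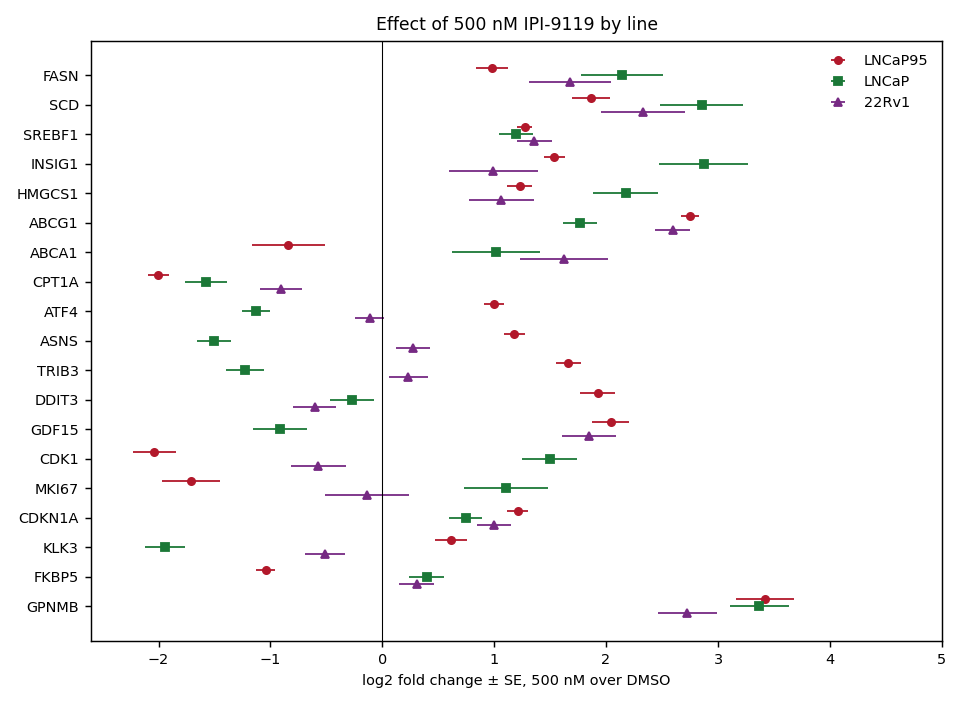
Log2 fold change of 500 nM IPI-9119 over DMSO with its standard error for 19 genes in LNCaP95 (red circles, fit of its 9 libraries), LNCaP (green squares) and 22Rv1 (purple triangles, both from the fit of 27 libraries). FASN, SCD and SREBF1 lie right of 0 in all 3 lines, while ATF4, ASNS and TRIB3 lie right of 0 in LNCaP95 and left of 0 in LNCaP.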

How the data were processed

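Poly(A)-selected RNA was sequenced with a directional kit as paired ends, per the labels' protocols. STAR 2.3.1z4, featureCounts, DESeq and the genome build hg19 were used by the authors, per the submitters' processing notes, and the sources used here do not give the strand setting of the counting, so overlapping genes are uncertain. The authors deposited a normalised signal, which is each count scaled by the size factor of the library. In 27 of 27 libraries 100% of values were whole multiples of what 1 read is worth (tolerance 1e-06), which allowed reads to be recovered. Columns of no sample numbered 0. The design's test on the log scale was kept as the main one. The deposited values were tested as log2(value + 1) in limma 3.58.1 (R 4.3.3) with an intensity trend, two-sided, with Benjamini-Hochberg adjustment over all genes tested, in 1 fit of the 9 LNCaP95 libraries, or of all 27 for differences between lines with the filter met in each line. On recovered reads edgeR 4.0.16 called 6707 genes and DESeq2 1.42.0 called 6556. The steps of the fit were also run on simulated counts, with independent libraries and few changed genes. Those settings differ from these data, so that run does not show that the calls here are right. Libraries with the same replicate number pair, as seen in the data rather than stated in the labels: their deviations from the group means correlated by 0.332, 0.163 and 0.207 between 500 nM and DMSO, 0.47, 0.321 and 0.287 between 500 nM and 100 nM, and 0.296, 0.128 and 0.264 between 100 nM and DMSO. Named genes were a panel of 40 genes (38 tested), the 15 largest rises and falls among called genes with a mean of 50 or more in the higher group and no overlap (clone-like names left out), the 4 tested members of lowest p in each of 42 lists, and the 5 and 5 largest called differences between lines. Some genes that this rule names are not reported here. Another 50 list members were named after their values were seen. The groups, lists and named genes were chosen with earlier results of these data known. Alternatives tried were other pseudocounts (0.5 and 5), filters (none, or 50), scalings, the replicate block, array weights, only the groups compared, edgeR, DESeq2, each library left out and, added after seeing the data, replicates 1 and 3 only.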

Additional observations from a re-analysis of the deposited data

Results flagged for a closer look

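The effect of 500 nM in LNCaP95 differed from that in LNCaP, by the test of the difference itself in limma over 27 libraries, in 19 named genes, given as log2 fold changes of 500 nM over DMSO. In 18 of them the 3 libraries of the drug and the 3 of DMSO did not overlap in LNCaP95 (UGT2B10 did), and in 16 they did not overlap in LNCaP (KLHDC7B, RPRML and MKI67 did). Choice by a called difference favours such separation. Over the 12844 genes tested in LNCaP95 the libraries lay apart upward in 31.6% and downward in 27.3%, and no such share was computed in LNCaP. NDUFA4L2 had an effect of 2.16 in LNCaP95 and -2.81 in LNCaP, a difference of 4.97 (adjusted p = 1.03e-11). FIBIN had an effect of 4.09 in LNCaP95 and -0.76 in LNCaP, a difference of 4.85 (adjusted p = 9.54e-08). PRSS3 had an effect of 3.73 in LNCaP95 and -1.09 in LNCaP, a difference of 4.82 (adjusted p = 7.88e-06). DMGDH had an effect of 3.32 in LNCaP95 and -1.46 in LNCaP, a difference of 4.78 (adjusted p = 4.56e-07). KLHDC7B had an effect of 4.46 in LNCaP95 and -0.06 in LNCaP, a difference of 4.52 (adjusted p = 5.91e-05). ABCG2 had an effect of -1.32 in LNCaP95 and 3.41 in LNCaP, a difference of -4.73 (adjusted p = 1.21e-06). RPRML had an effect of -3.80 in LNCaP95 and 0.84 in LNCaP, a difference of -4.63 (adjusted p = 1.04e-05). UGT2B10 had an effect of -0.36 in LNCaP95 and 4.10 in LNCaP, a difference of -4.47 (adjusted p = 1.05e-08). FGFR3 had an effect of -1.19 in LNCaP95 and 2.84 in LNCaP, a difference of -4.03 (adjusted p = 1.51e-07). TUBA3D had an effect of -2.10 in LNCaP95 and 1.87 in LNCaP, a difference of -3.97 (adjusted p = 3.83e-08). Mean levels were low in LNCaP95 DMSO for FIBIN (4.27), PRSS3 (5.60) and DMGDH (5.16). In LNCaP95 with 500 nM, RPRML was at 2.38 and ABCG2 at 6.08, and in LNCaP DMSO ABCG2 was at 4.76. The differences in these genes rest on few reads in at least 1 group. Within LNCaP the limma effects of FIBIN (adjusted p = 0.118), PRSS3 (0.104), KLHDC7B (0.95) and RPRML (0.215) were not called. Their signs in LNCaP are therefore not established. Leaving out LNCaP DMSO replicate 1 moved ABCG2 to -5.38, and leaving out LNCaP95 DMSO replicate 2 or 3 gave PRSS3 5.57 or 4.10.

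Of the panel, 9 genes were called in both lines with opposite signs. DMSO means lay far apart between the lines for ATF4, ASNS and CDK1, as given above. For XBP1 they were 7582 in LNCaP95 and 7042 in LNCaP. ELOVL6 had an effect of -0.57 in LNCaP95 and 2.05 in LNCaP, a difference of -2.63 (adjusted p = 1.27e-06). KLK3 had an effect of 0.61 in LNCaP95 and -1.94 in LNCaP, a difference of 2.56 (adjusted p = 5.75e-08). ATF4 had an effect of 1.0 in LNCaP95 and -1.13 in LNCaP, a difference of 2.13 (adjusted p = 6.3e-09). ASNS had an effect of 1.18 in LNCaP95 and -1.51 in LNCaP, a difference of 2.69 (adjusted p = 2.52e-09). TRIB3 had an effect of 1.66 in LNCaP95 and -1.23 in LNCaP, a difference of 2.89 (adjusted p = 5.74e-09). XBP1 had an effect of 0.53 in LNCaP95 and -0.73 in LNCaP, a difference of 1.27 (adjusted p = 1.84e-06). CDK1 had an effect of -2.04 in LNCaP95 and 1.5 in LNCaP, a difference of -3.53 (adjusted p = 4.58e-08). MKI67 had an effect of -1.71 in LNCaP95 and 1.10 in LNCaP, a difference of -2.81 (adjusted p = 0.000197). GDF15 had an effect of 2.04 in LNCaP95 and -0.92 in LNCaP, a difference of 2.96 (adjusted p = 4.06e-07). Without LNCaP DMSO replicate 1, MKI67 differed by -3.48.

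Against 22Rv1, 11 named genes differed by the same test. In 10 of them the libraries did not overlap in LNCaP95 (ABCA1 did), and in 6 they did not in 22Rv1 (CUZD1, ENTPD3, CORO1A, HIST1H4C and DDIT3 did). Here too the choice favours separation, and its share over all genes was not computed in 22Rv1. UGT2B4 had an effect of 2.93 in LNCaP95 and -1.57 in 22Rv1, a difference of 4.50 (adjusted p = 5.99e-07). CUZD1 had an effect of 3.21 in LNCaP95 and -1.01 in 22Rv1, a difference of 4.22 (adjusted p = 2.04e-06). ENTPD3 had an effect of 2.84 in LNCaP95 and -0.88 in 22Rv1, a difference of 3.72 (adjusted p = 0.00127). FGF12 had an effect of 2.62 in LNCaP95 and -0.95 in 22Rv1, a difference of 3.57 (adjusted p = 5.32e-05). LURAP1L had an effect of 4.50 in LNCaP95 and 0.94 in 22Rv1, a difference of 3.56 (adjusted p = 7.1e-05). RPRML had an effect of -3.80 in LNCaP95 and -0.91 in 22Rv1, a difference of -2.89 (adjusted p = 0.00336). CORO1A had an effect of -2.72 in LNCaP95 and -0.19 in 22Rv1, a difference of -2.53 (adjusted p = 0.000314). DUSP5 had an effect of -1.59 in LNCaP95 and 0.92 in 22Rv1, a difference of -2.51 (adjusted p = 2.31e-05). ABCA1 had an effect of -0.84 in LNCaP95 and 1.62 in 22Rv1, a difference of -2.46 (adjusted p = 0.00237). HIST1H4C had an effect of -1.71 in LNCaP95 and 0.48 in 22Rv1, a difference of -2.19 (adjusted p = 0.00893). DDIT3, called in both lines with opposite signs, had an effect of 1.92 in LNCaP95 and -0.60 in 22Rv1, a difference of 2.53 (adjusted p = 1.46e-06). Mean levels were low in LNCaP95 DMSO for UGT2B4 (4.57), FGF12 (3.69) and LURAP1L (2.20). In LNCaP95 with 500 nM they were low for RPRML (2.38), CORO1A (8.85) and HIST1H4C (8.24). In 22Rv1, ENTPD3 was at 5.07 with 500 nM and 7.81 with DMSO, and DUSP5 at 9.57 with DMSO. The differences in these genes rest on few reads in at least 1 group. Within 22Rv1 the limma effects of CUZD1 (adjusted p = 0.0531), ENTPD3 (0.334), FGF12 (0.113) and LURAP1L (0.127) were not called. Nor were those of RPRML (0.248), CORO1A (0.757) and HIST1H4C (0.518). The signs of these genes in 22Rv1 are therefore not established. Without 22Rv1 500 nM replicate 2 or 3 the difference in ENTPD3 was 2.69 or 4.31. The causes of these differences were not tested, and UGT2B, PRSS, TUBA3 and histone genes have paralogs that may share reads.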

How the results depend on the processing

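With the replicate number as a block, which the pairing of the libraries allows, 7789 genes were called for 500 nM against DMSO, 0 for 500 nM against 100 nM, 5116 for the difference from LNCaP and 3574 for that from 22Rv1. Among the named genes the block changed the call of MYC, BUB3, CALR, TFE3, MT-CYB, MT-CO2, MT-ND2 and MT-ND3, given above, and of CAMK2N1 (-0.29), LUM (-0.38) and COL3A1 (0.89), which became called, and of no other. The count for 500 nM against DMSO ran from 5442 (replicates 1 and 3 only, chosen after seeing the data) to 7789 over the other settings, and from 5884 to 6208 with 1 library left out. With 1 library left out the difference from LNCaP ran from 3949 to 4976 genes and that from 22Rv1 from 2286 to 2856. With array weights the difference from 22Rv1 was called in 4792 genes and that from LNCaP in 6576, and 5813 genes were called within LNCaP and 2967 within 22Rv1; the cause was not tested. Of 241 named genes, 209 kept their direction and call in each setting that tested them (19 settings, or 18 for the 10 genes that the filter at 50 removed), and 32 did not (52 pairs of gene and setting lost a call, 40 gained one and 30 reversed). The 30 named differences between lines kept direction and call in all 703 alternative values. They were chosen as called in the same libraries, and many named genes by their p or fold change. Such stability follows in part from the choice and is no independent support. Genes whose direction reversed were not called in the main test. With 1 library left out, TMPRSS2 ran from -0.10 to 0.27, ENO2 ran from -0.11 to 0.0607, NTS ran from -0.49 to 0.29, VWF ran from -0.66 to 0.0809, CD68 ran from -0.71 to 0.0777, PTPRC ran from -0.20 to 0.34 and MITF ran from -0.16 to 0.14. Elsewhere, TMPRSS2 was -0.0922 with array weights and -0.0568 with replicates 1 and 3 only. NTS was 0.19 with array weights, 0.33 with replicates 1 and 3 only, 0.0109 with edgeR and 0.0411 with DESeq2. With quantile normalisation EMCN was -0.12, PTPRC -0.0575, HSP90B1 -0.16 and MITF -0.12. PTPRC was -0.0898 and MITF -0.19 with replicates 1 and 3 only. MITF was also -0.0227 with equal totals, -0.13 with array weights, -0.0231 with edgeR and -0.0243 with DESeq2. A pseudocount of 5 lowered genes near 0 in a group by construction, LCN2 to 4.42, SV2B to 3.81, FGF21 to 2.11, CDKN2B to 2.39 and MYCN to -1.49. With replicates 1 and 3 only, 3 genes of fatty acid oxidation rose, and 2 of phospholipid synthesis, 0 of fatty acid synthesis and 1 of MHC class I presentation fell. Other causes were not tested. The 3 replicates per group and 15073809 to 23565696 reads per library limit what low genes can show.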
